A study of Mus musculus with 10 samples.

Results

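The genes described here are 33 named genes of the unfolded protein response and the integrated stress response, measured in mouse colon organoids. They were chosen by symbol from a table of 56748 genes, 21970 of them protein-coding, and each of the 33 symbols had 1 protein-coding entry that was tested among 13607 genes. The set has 16 chaperones, foldases and degradation factors of the endoplasmic reticulum (ER), 12 genes of the ATF4 branch, and 5 sensors or factors that sensors act on. None of the 33 passed the test between WY-14643 and vehicle. The ATF4 branch differed widely between matched pairs of libraries (1 of each treatment): Trib3, its most variable gene, spanned 129.9-fold over the 10 libraries, and most of the branch was highest in 1 pair and lowest in another, with the agonist and without it. The 16 ER genes varied less, and for 9 of them the 2 highest libraries were those of yet another pair. How many of all tested genes had such orders was not counted.

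Organoids are cultures of intestinal epithelium grown from crypt cells. One group received WY-14643, an agonist of the nuclear receptor PPARα, at 100 µM for 2 days (5 libraries, replicates 6 to 10), and the other received vehicle for the same time (5 libraries, replicates 1 to 5). In both groups the exposure began 3 days after passage, and polyadenylated RNA was sequenced in bulk. The labels give no genotype, strain, age, animal, line or day for the organoids, and a p-value here measures only how these 10 libraries scatter, which may be technical. No group without PPARα is labelled.

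When unfolded proteins build up in the ER, the sensors IRE1, PERK and ATF6 are activated. IRE1 splices the mRNA of XBP1, and XBP1 and the cleaved form of ATF6 turn on chaperones and factors of ER-associated degradation (ERAD). PERK phosphorylates the translation factor eIF2α, as do GCN2, HRI and PKR when amino acids, heme or mitochondrial function fail or viral RNA appears; this common arm is the integrated stress response, in which overall translation falls and ATF4 is translated. ATF4 turns on genes of amino acid supply, and with prolonged stress CHOP and TRIB3. In the colon, secretory goblet cells carry a heavy load of mucin folding and express their own form of IRE1, encoded by Ern2.

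Reads assigned to genes numbered 16136440 to 22209003 per WY-14643 library and 15618244 to 29271304 per vehicle library. The libraries fall into 5 matched pairs (WY-14643 replicate 6 with vehicle replicate 1, and so on to 10 with 5), which the labels do not state and which were read from the data. Fits are therefore given without and with pairs. The agonist's effect on known PPARα targets was visible: Cpt1a, which imports fatty acids into mitochondria, averaged 26.6 ± 3.52 FPKM (fragments per kilobase of gene, scaled by a factor per library) with WY-14643 and 11.5 ± 2.39 FPKM with vehicle (SD, n = 5 each; limma with pairs, adjusted p = 0.01004). Of 9 such targets 8 were tested, all 8 had a higher mean log2(FPKM + 1) with WY-14643 and 4 passed with pairs. Their mean level was higher by 1.044 to 1.148 on the log2 scale in the first 4 pairs, with 8 of 8 targets higher, and by 0.44 in the fifth, with 6 of 8 higher. Epithelial markers were abundant, with the keratin Krt8 at 938 to 2694 FPKM with WY-14643 and 1024 to 2345 FPKM with vehicle, and Cdx2, an intestinal transcription factor, at 71.3 to 143 FPKM with WY-14643 and 63.9 to 138 FPKM with vehicle. Of 9 markers of fibroblasts, immune cells and endothelium 8 were below the test filter of a mean of 0.5 FPKM, and Cd3e was at 0 in every library. The ninth, the macrophage marker Cd68, was at 1.99 to 6.35 FPKM with WY-14643 and 2.30 to 5.23 FPKM with vehicle. All 5 markers of enteroendocrine and tuft cells were below the filter.

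No gene of the whole table passed an adjusted p of 0.05 without pairs (limma, Benjamini-Hochberg adjustment; 0% of 13607 genes, and 205 genes at an unadjusted p under 0.05), nor in the voom fit on reads, where 187 were under that unadjusted limit. With pairs 43 genes passed (0.316%), 39 of them higher with WY-14643 (0.287%) and 4 lower (0.0294%), and none was a member; with library quality weights 21 passed (0.154%), 18 higher (0.132%) and 3 lower (0.022%), again no member. All 33 members had an adjusted p of 0.99999 without pairs (unadjusted p under 0.05 for none, against 1.51% of all genes), and their smallest with pairs was 0.159. Members with a higher mean numbered 18 and with a lower mean 15, against 47.1% of all tested genes with a higher mean. Higher and lower means, here and in the counts below, are those of log2(FPKM + 1). The values of the groups overlapped for all 33, where 0.243% of all genes lay wholly above and 0.11% wholly below vehicle. Herpud1, Asns and Xbp1 were higher in 5 of 5 pairs (5.63% of all genes) and Pdia3 was lower in 5 of 5 (6.09% of all genes). With pairs, Herpud1, Pdia3 and Asns, 3 members, were under an unadjusted p of 0.05, where 10.6% of all genes were. The paired 95% intervals are on FPKM + 1 and rest on pairs read from these data. All 33 lay within 2-fold in either direction and 30 within 1.5-fold, the others being Trib3, Chac1 and Ppp1r15a. Without pairs the intervals of Atf3, Atf5, Ddit3, Trib3, Asns, Chac1, Mthfd2 and Ppp1r15a reached beyond 2-fold. That of Trib3 ran from -1.89 to 2.76 on the log2 scale.

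**Figure D1:**
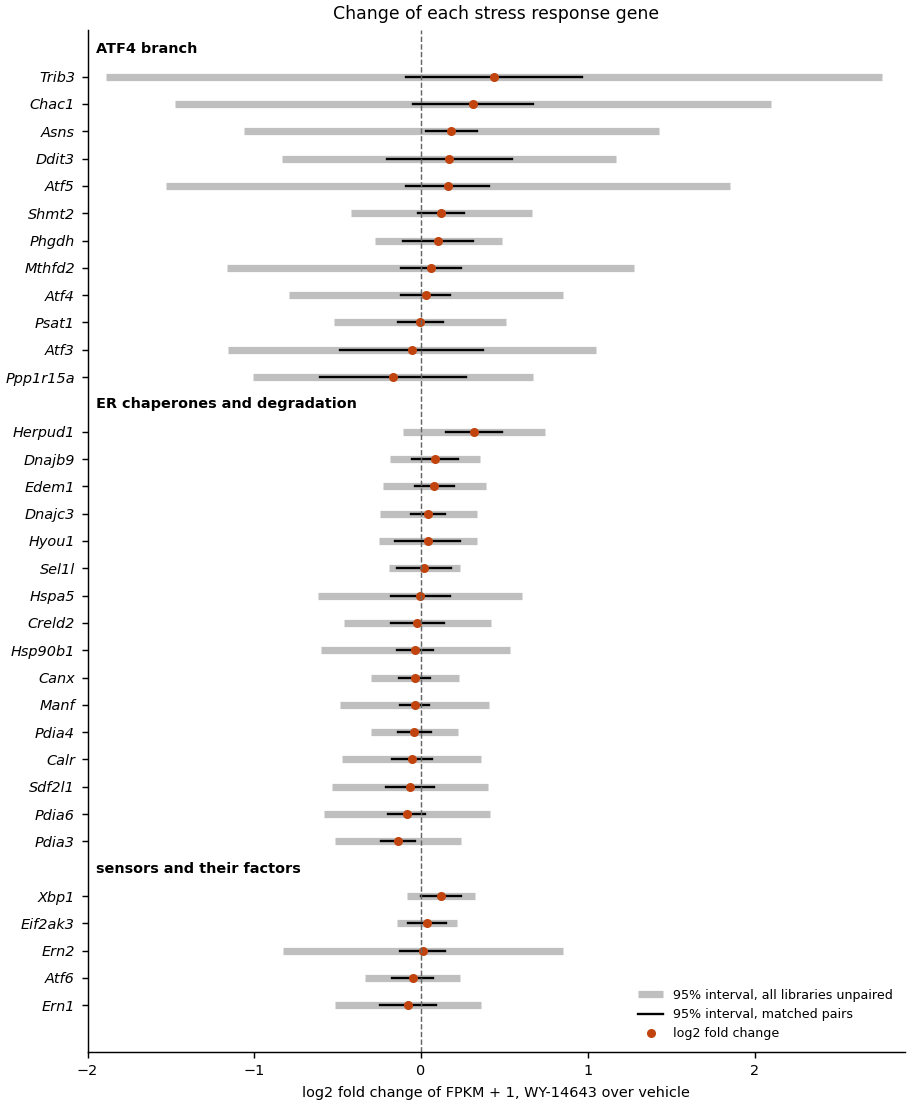
Each point is 1 gene's log2 fold change of FPKM + 1, WY-14643 over vehicle (n = 5 each), with its 95% interval without pairs (grey bar) and with pairs (black line). The points sit between -0.17 for Ppp1r15a and 0.44 for Trib3. The grey bars of the ATF4 branch include the widest. Its black lines are shorter than its grey bars but include the longest of the figure, with Trib3 at -0.09 to 0.97.

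The ATF4 branch begins with Atf4 itself (chr15:80139385-80141742; gene positions are those of the table, mm39), the transcription factor whose translation is raised when eIF2α is phosphorylated. Values of a group follow the order of its replicates, 6 to 10 for WY-14643 and 1 to 5 for vehicle. Atf4 mRNA was at 101, 82.5, 132, 201 and 66.1 FPKM with WY-14643, against 85.8, 86.8, 136, 217 and 60.0 FPKM with vehicle. The fourth pair (replicates 9 and 4) was the highest of the 10 libraries and the fifth (10 and 5) the lowest, under both treatments. The mean was 116 ± 53.0 FPKM with WY-14643 and 117 ± 62.4 FPKM with vehicle (SD, n = 5 each), and the log2 fold change was 0.03 (95% interval -0.12 to 0.18 with pairs, -0.79 to 0.85 without). In bulk RNA, fewer cells that express a gene and less RNA of it per cell cannot be told apart, here and for every gene below. The mRNA level does not show how much ATF4 protein was made.

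Trib3 (chr2:152179342-152185952), a pseudokinase that ATF4 and CHOP induce and that feeds back on the response, had 11.2, 5.24, 17.7, 59.9 and 2.09 FPKM with WY-14643, against 5.11, 3.11, 19.9, 71.3 and 0.549 FPKM with vehicle. Both libraries of the fourth pair were the top and both of the fifth the bottom; the lowest value rested on 25 reads. The log2 fold change of 0.44 ± 0.22 (SE with pairs) was the largest of the members, with 95% intervals of -1.89 to 2.76 without pairs and -0.09 to 0.97 with them, and the agonist was higher in 3 of 5 pairs (limma with pairs, adjusted p = 0.543). Chac1 (chr2:119181710-119184862), which degrades glutathione, was likewise highest in the fourth pair and lowest in the fifth, with 12.97, 5.39, 24.4, 31.4 and 2.53 FPKM under WY-14643, against 6.39, 4.50, 24.2, 33.6 and 1.48 FPKM under vehicle. Its range was 22.7-fold and its log2 fold change 0.31 ± 0.15 (SE with pairs; limma with pairs, adjusted p = 0.520).

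Atf5, a transcription factor of the mitochondrial and ER stress responses, stood at 9.04, 8.76, 15.5, 70.6 and 6.999 FPKM with WY-14643, against 6.10, 7.95, 11.7, 82.9 and 6.88 FPKM with vehicle. The fourth pair was far above the other 8 libraries, which lay between 6.10 and 15.5 FPKM. Atf5 overlaps Nup62 on the other strand, and whether the libraries kept strand is not known, so their reads cannot be fully told apart. Ddit3, which encodes the pro-apoptotic factor CHOP, had 13.8, 10.1, 11.5, 24.4 and 5.82 FPKM with WY-14643, against 7.67, 11.3, 12.4, 27.3 and 3.89 FPKM with vehicle. It too was highest in the fourth pair and lowest in the fifth. Ddit3 overlaps Mars1 on the other strand, and a second Ddit3 entry of 105 bases was at 0 in every library and was not tested.

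Asns (chr6:7675169-7693254), which makes asparagine and is among the best-known ATF4 targets, reached 55.7, 48.4, 89.9, 123 and 20.1 FPKM with WY-14643, against 51.1, 35.0, 85.8, 117 and 17.4 FPKM with vehicle. WY-14643 was higher in each of the 5 pairs, by 0.07 to 0.46 on the log2 scale, and the mean log2 fold change was 0.18 ± 0.07 (SE, with pairs; limma, adjusted p = 0.390). The pair differences were small beside the 7.02-fold range over the libraries. Mthfd2, a mitochondrial one-carbon enzyme, was also highest in the fourth pair and lowest in the fifth, at 18.2, 12.7, 29.5, 39.7 and 6.96 FPKM with WY-14643 and 17.6, 9.52, 30.7, 43.6 and 6.70 FPKM with vehicle, and its log2 fold change was 0.06 (95% interval -0.12 to 0.24 with pairs).

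The other enzymes of serine and one-carbon supply varied less. Phgdh, the first enzyme of serine synthesis, had 110.3, 71.3, 111, 86.5 and 72.6 FPKM with WY-14643, against 94.1, 58.8, 90.3, 87.0 and 87.8 FPKM with vehicle, and a log2 fold change of 0.10 ± 0.09 (SE with pairs; limma, unadjusted p = 0.566 without pairs; adjusted p = 0.7504 with pairs). Shmt2, which moves the carbon of serine into the mitochondrial folate pool, had 40.4, 31.7, 61.2, 49.98 and 29.4 FPKM with WY-14643, against 40.3, 25.4, 55.6, 43.7 and 30.0 FPKM with vehicle, and a log2 fold change of 0.12 ± 0.06 (SE with pairs; adjusted p = 0.515 with pairs). Psat1, the next enzyme of serine synthesis, had 54.0, 55.4, 103, 85.8 and 67.4 FPKM with WY-14643, against 56.7, 48.9, 97.6, 88.6 and 75.6 FPKM with vehicle. For all 3 WY-14643 replicate 8 was the highest library and vehicle replicate 2 the lowest, so they did not share the fourth pair's peak.

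Ppp1r15a, or GADD34, brings the phosphatase that removes the mark from eIF2α and so ends the response. It had 11.0, 5.03, 8.78, 18.8 and 6.88 FPKM with WY-14643, against 7.42, 9.72, 9.94, 25.4 and 6.53 FPKM with vehicle, and the lowest fold change of the branch, -0.17 ± 0.18 on the log2 scale (SE with pairs; limma with pairs, adjusted p = 0.804). Atf3, an early-response factor downstream of ATF4, had 8.74, 2.82, 4.48, 9.31 and 1.68 FPKM with WY-14643, against 7.87, 5.55, 5.61, 8.57 and 0.866 FPKM with vehicle. These are the members whose pair differences scattered most after Trib3, with an SD of 0.50 for Ppp1r15a and 0.49 for Atf3 on the log2 scale, against 0.15 for Atf4.

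**Figure D2:**
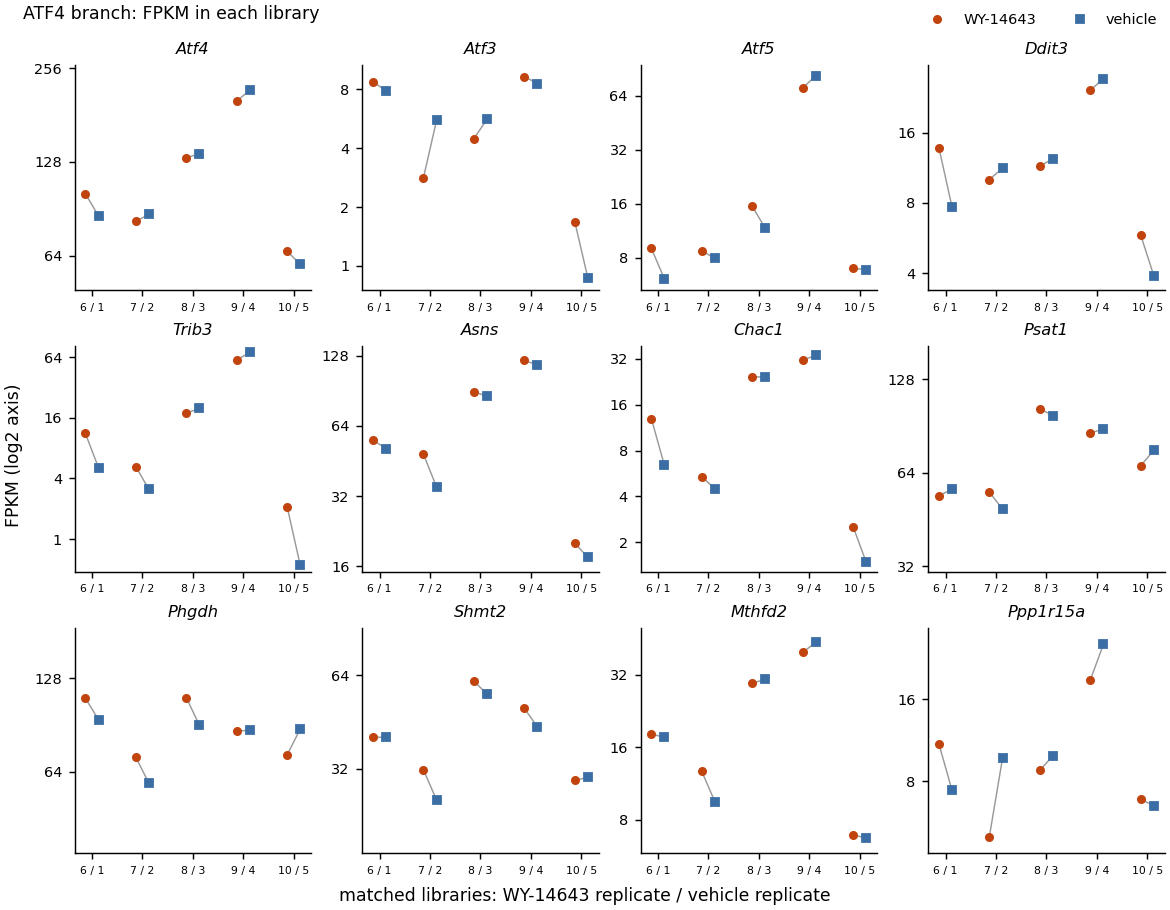
FPKM of the 12 ATF4-branch genes in each library, on log2 axes that differ between panels, with WY-14643 (circles) left of its matched vehicle library (squares) and a line joining them. In 8 of the 12 panels both libraries of the fourth pair are the 2 highest, and in 7 both of the fifth are the 2 lowest.

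Across the branch, both libraries of the fourth pair were the 2 highest of 10 for 8 of 12 genes. Both of the fifth pair were the 2 lowest for 7 of 12. Of 25 other ER folding and ERAD genes 3 had the first order and 3 the second. Of 22 genes of the ER translocon and transport 1 had the first and 4 the second. Of 9 genes of the mitochondrial stress response 4 had the first and 3 the second. Of 7 tested goblet markers 0 had the first and 4 the second, so these orders were not particular to the branch. How many of all tested genes had these orders was not counted. The ratio of the highest to the lowest library had a median of 6.77 over the 12 genes (1.89 to 130), against 1.84 over all tested genes. The log2 range reached 2 or more for 8 of the 12, where 5.75% of all genes did. The SD between pairs was above the SD of the differences within pairs for 12 of 12, where 66.87% of all genes had that order. The pairs were read from these same libraries. The SDs are of pair means and of pair differences, so they are not on the same scale. The median log2 fold change of the 12 was 0.11, with 9 means higher and 3 lower, and that of all tested genes was -0.01.

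Cell type markers differed between the same pairs. The 5 tested colonocyte markers of 7 summed to 52.1 to 1818 FPKM with WY-14643 and 29.5 to 978 FPKM with vehicle, and all 5 were lowest in the fifth pair; Aqp8 and Slc37a2 were below the filter. Car1 made up most of the highest sum, at 1626 FPKM in WY-14643 replicate 9. All 5 had a higher mean with WY-14643, with log2 fold changes of 0.11 to 1.02, and none was called with or without pairs. Krt20, a keratin of mature colonocytes, had 97.5, 54.9, 77.9, 169 and 6.92 FPKM with WY-14643, against 61.1, 64.9, 65.4, 129 and 6.12 FPKM with vehicle. Both libraries of the fourth pair were the 2 highest for 2 of the 5, Krt20 and Muc3, and not for Car1, Slc26a3 or Guca2a. Both libraries of the fourth pair were the 2 lowest for 3 of the 5 tested stem and cycling markers, Mki67, Top2a and Axin2, with Mki67 at 12.97 FPKM under WY-14643 and 9.12 FPKM under vehicle, where the other libraries lay between 25.5 and 83.0 FPKM. The 5, of 6 listed, summed to 45.3 to 160 FPKM with WY-14643 and 38.1 to 172 FPKM with vehicle. The part of cell composition in the ATF4-branch values was not tested.

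CARE elements, the composite sites at which ATF4 pairs with C/EBP factors, were searched as TGATGNAA on either strand in RefSeq promoters (build GRCm38.p6, 250 bases before to 50 after the RefSeq start), which covered 29 of the 33 members. They were in a promoter of 4 of the 12 ATF4-branch genes and in 3.97% of all 32851 promoters. Members were counted here and below as genes, and the share of all as promoters, which belong to 27025 genes. No test was run on these shares. The windows of these genes are shown because they hold the most variable genes of the set, Trib3 and Chac1, and Asns, which was higher with WY-14643 in each pair; capitals mark the match, and each line reads along the gene's own strand.
Asns: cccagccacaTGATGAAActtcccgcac
Atf3: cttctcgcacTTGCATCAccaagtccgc
Trib3: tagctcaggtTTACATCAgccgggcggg
These windows are chr6:7693215-7693242 on the minus strand for Asns, chr1:191183426-191183453 on the minus strand for Atf3, and chr2:152344029-152344056 on the minus strand for Trib3. The first base of the match lay 23 bases before the RefSeq start of Asns and 110 before that of Atf3, and 14 bases after that of Trib3. For Chac1 the whole 250 bases before the start (chr2:119350992-119351241, plus strand) are shown, since its match lay 193 bases before the start, the farthest of these.
Chac1: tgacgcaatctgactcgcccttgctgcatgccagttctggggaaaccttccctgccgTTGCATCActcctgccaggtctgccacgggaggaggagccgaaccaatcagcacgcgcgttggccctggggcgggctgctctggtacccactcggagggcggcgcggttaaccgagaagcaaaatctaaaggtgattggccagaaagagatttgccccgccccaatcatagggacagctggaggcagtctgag
Atf4, Atf5, Ddit3, Mthfd2, Psat1, Phgdh, Shmt2 and Ppp1r15a had no match of these letters in the window.

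The ER chaperones were among the most abundant mRNAs of the set. Calr (chr8:85568479-85573563), the calcium-binding lectin chaperone calreticulin, had 259, 169.9, 199, 137 and 167 FPKM with WY-14643, against 249.9, 169, 206, 145 and 194 FPKM with vehicle. Both libraries of the first pair were the highest and both of the fourth the lowest, the reverse of the fourth pair's place among ATF4 targets. The log2 fold change was -0.06 ± 0.05 (SE with pairs; 95% interval -0.18 to 0.06 with pairs). Hspa5 (chr2:34661982-34667559), or BiP, the HSP70 chaperone that also holds the sensors inactive, had 254, 110.1, 154, 138 and 96.5 FPKM with WY-14643, against 208, 103, 163, 159 and 104 FPKM with vehicle. The first pair held the 2 highest libraries, and those of the second pair and the fifth were the 4 lowest. The mean was 150.4 ± 61.9 FPKM with WY-14643 and 148 ± 44.2 FPKM with vehicle (SD, n = 5 each), and the log2 fold change was -0.01 (95% interval -0.18 to 0.17 with pairs, -0.62 to 0.61 without). Hsp90b1, the HSP90 chaperone GRP94, had 186, 123, 145, 84.0 and 104 FPKM with WY-14643, against 188, 125, 153, 79.5 and 114 FPKM with vehicle, and again the first pair led and the fourth was last.

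Pdia3 (chr2:121244256-121269168), a disulfide isomerase that folds glycoproteins with calreticulin and calnexin, had 201, 139.8, 159, 119 and 138 FPKM with WY-14643, against 223, 141, 178, 134 and 158 FPKM with vehicle. It was lower with WY-14643 in each of the 5 pairs, with log2 differences of -0.20 to -0.01, and its mean log2 fold change was -0.14 ± 0.04 (SE with pairs; 95% interval -0.24 to -0.04). That difference did not pass over all genes (limma, adjusted p = 0.317 with pairs; unadjusted p = 0.434 without). The sister isomerases Pdia4 and Pdia6 had log2 fold changes of -0.04 (95% interval -0.14 to 0.06 with pairs) and -0.09 (-0.20 to 0.02), each lower in 4 of 5 pairs. Canx, calnexin, the membrane partner of calreticulin, averaged 116 ± 14.1 FPKM with WY-14643 and 119 ± 17.2 FPKM with vehicle (SD, n = 5 each).

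The ERAD gene Herpud1 (chr8:95113066-95122005), an ER membrane protein that recruits the ubiquitin ligase of degradation, came nearest to a call. It had 27.4, 30.3, 34.8, 32.5 and 20.9 FPKM with WY-14643, against 19.4, 28.4, 31.1, 22.9 and 15.8 FPKM with vehicle, higher in each of the 5 pairs by 0.09 to 0.49 on the log2 scale. The log2 fold change was 0.32 ± 0.07 (SE with pairs; 95% interval 0.15 to 0.49), or -0.11 to 0.74 without pairs, and limma's adjusted p was 0.159 with pairs; the unadjusted p without them was 0.128. Sel1l, the scaffold of that ligase, and Edem1, which marks misfolded glycoproteins by trimming mannose, did not share the size of the difference. Sel1l had 18.7, 17.5, 18.1, 18.1 and 15.5 FPKM with WY-14643, against 16.2, 16.6, 16.5, 21.6 and 16.1 FPKM with vehicle, and Edem1 had a log2 fold change of 0.08 (95% interval -0.04 to 0.20 with pairs).

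The remaining members of this group had log2 fold changes between -0.07 and 0.08. Dnajb9, or ERdj4, a BiP cofactor that is a standard XBP1 target, had 11.9, 14.8, 11.6, 9.96 and 11.2 FPKM with WY-14643, against 11.3, 13.3, 12.3, 9.90 and 9.18 FPKM with vehicle, and a log2 fold change of 0.08 ± 0.06 (SE with pairs; limma with pairs, adjusted p = 0.678). Sdf2l1, another BiP partner, had 23.5, 23.2, 24.6, 14.7 and 25.1 FPKM with WY-14643, against 27.9, 26.0, 25.4, 13.2 and 25.8 FPKM with vehicle, and was low in the fourth pair alone. The nucleotide exchange factor Hyou1 had a log2 fold change of 0.04 (95% interval -0.15 to 0.23 with pairs), and the cochaperone Dnajc3, which also inhibits eIF2α kinases, one of 0.04 (-0.06 to 0.15). The secreted stress factors Manf and Creld2 were at -0.04 (-0.12 to 0.04) and -0.02 (-0.18 to 0.14). The span of Manf in the table overlaps Dcaf1 and Rbm15b.

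**Figure D3:**
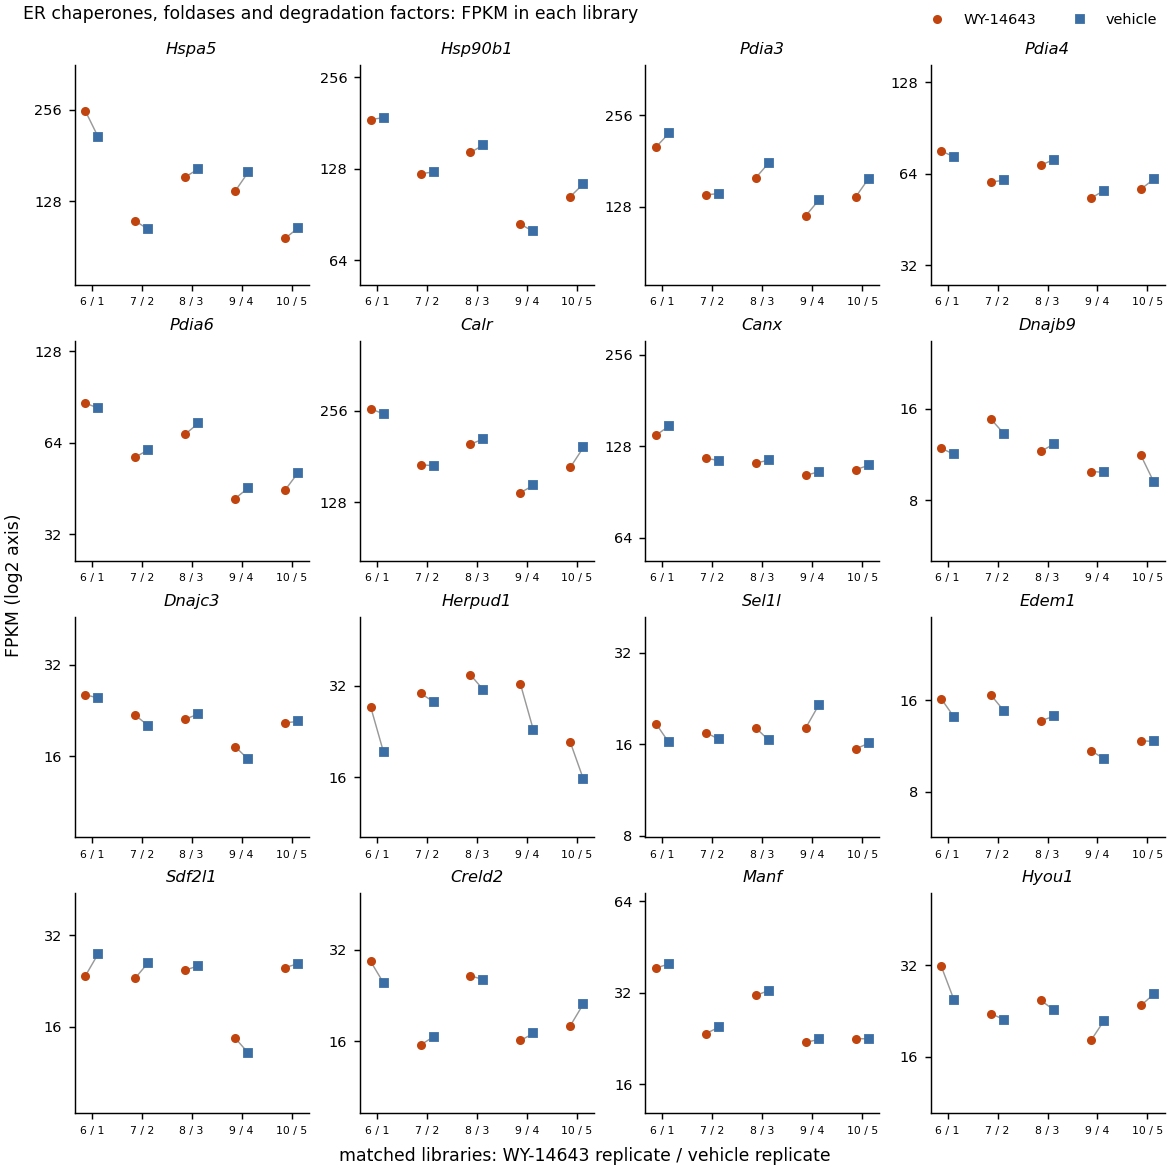
FPKM of the 16 chaperones, foldases and degradation factors in each library, on log2 axes of equal span, with WY-14643 (circles) left of its matched vehicle library (squares). The first pair (6 and 1) holds the 2 highest libraries in 9 panels and the fourth (9 and 4) the 2 lowest in 10, and Herpud1 is higher with WY-14643 in each pair.

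As a group, the 16 genes had a median ratio of highest to lowest library of 1.84 (1.39 to 2.63), against 1.84 for all tested genes, and none reached a log2 range of 2. Both libraries of the first pair were the 2 highest for 9 of 16 genes, and both of the fourth were the 2 lowest for 10 of 16. The first pair also led most often among other ER genes. It did so for 9 of 25 other folding and ERAD genes and 6 of 22 translocon and transport genes. The fourth pair was lowest for 3 of those 25 and 5 of those 22. Such orders were not counted over all tested genes. The median log2 fold change was -0.03, with 6 means higher and 10 lower. All 16 paired intervals lay within 1.5-fold.

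ER stress elements (ERSE), which ATF6 and XBP1 bind together with NF-Y, were searched as CCAAT, any 9 bases and CCACG on either strand. They were in a promoter of 7 of the 14 matched genes of this group and in 0.119% of all promoters. None of the 12 genes of the ATF4 branch or the 3 of the sensors had one. The shorter ERSE-II, searched as ATTGG, any base and CCACG, was in 0.0365% of all promoters and, of the members, in Herpud1 alone, which also held a CARE match. The UPRE-like octamer TGACGTGG, in 0.676% of all promoters, was in no member's window. The matches are shown because this group held them and the ATF4 branch did not; capitals mark the element, including its spacer.
Calr: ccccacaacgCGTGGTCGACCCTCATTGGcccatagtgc
Canx: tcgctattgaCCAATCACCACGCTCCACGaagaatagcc
Creld2: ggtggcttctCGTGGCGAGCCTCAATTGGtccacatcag
Dnajc3: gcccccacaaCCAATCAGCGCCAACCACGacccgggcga
Pdia6: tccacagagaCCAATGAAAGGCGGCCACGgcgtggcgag
Hsp90b1, far: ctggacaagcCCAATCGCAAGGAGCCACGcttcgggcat
Hsp90b1, near: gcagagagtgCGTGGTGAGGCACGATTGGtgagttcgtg
The windows lie at chr8:84847065-84847103 (minus strand, Calr), chr11:50325790-50325828 (minus, Canx), chr15:88819510-88819548 (plus, Creld2), chr14:118937817-118937855 (plus, Dnajc3) and chr12:17266481-17266519 (plus, Pdia6). Those of Hsp90b1 lie at chr10:86705628-86705666 and chr10:86705523-86705561 on the minus strand. For Hspa5 (chr2:34771840-34772089, plus strand; capitals, ERSE 65 bases before the start) and Herpud1 (chr8:94386179-94386428, plus strand; capitals, CARE at 112 and ERSE-II at 52 bases before the start) the 250 bases before the start are shown, the first as the main chaperone of the set and the second as the gene nearest to a call.
Hspa5: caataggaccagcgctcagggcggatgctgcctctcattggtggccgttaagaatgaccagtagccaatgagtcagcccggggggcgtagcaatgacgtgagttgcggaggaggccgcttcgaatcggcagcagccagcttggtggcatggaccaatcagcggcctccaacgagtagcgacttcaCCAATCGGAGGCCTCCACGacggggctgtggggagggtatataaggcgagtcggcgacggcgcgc
Herpud1: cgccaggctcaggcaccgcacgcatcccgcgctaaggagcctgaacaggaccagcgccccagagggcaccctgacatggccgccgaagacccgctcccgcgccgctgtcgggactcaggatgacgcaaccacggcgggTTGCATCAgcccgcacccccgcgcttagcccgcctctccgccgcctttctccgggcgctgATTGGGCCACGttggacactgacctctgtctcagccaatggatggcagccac
A match is a description of these letters and not a binding site shown in organoids.

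The sensors were expressed at low to moderate levels. Xbp1 (chr11:5470659-5475893), the transcription factor that IRE1 activates by splicing, had 38.0, 43.3, 40.5, 39.2 and 45.4 FPKM with WY-14643, against 31.8, 40.0, 40.4, 38.6 and 39.0 FPKM with vehicle. WY-14643 was higher in each of the 5 pairs, by 0.00 to 0.25 on the log2 scale, and the log2 fold change was 0.12 ± 0.05 (SE with pairs; 95% interval 0.00 to 0.24; limma, adjusted p = 0.475). FPKM over the gene does not separate spliced from unspliced Xbp1. Atf6, the sensor that is cleaved in the Golgi, had 13.3, 10.9, 12.4, 13.9 and 10.1 FPKM with WY-14643, against 12.9, 12.4, 12.5, 15.7 and 9.65 FPKM with vehicle (log2 fold change -0.05, 95% interval -0.18 to 0.07 with pairs). Eif2ak3, which encodes PERK, had 7.17, 7.45, 7.34, 6.22 and 7.10 FPKM with WY-14643, against 6.80, 6.61, 7.29, 6.08 and 7.55 FPKM with vehicle, a 1.24-fold range in all and a log2 fold change of 0.04 (-0.08 to 0.15).

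The IRE1 genes differed in their pattern over the pairs. Ern1, the ubiquitous form, had 6.93, 5.29, 5.66, 8.32 and 4.43 FPKM with WY-14643, against 6.14, 5.22, 6.28, 10.5 and 4.96 FPKM with vehicle, highest in the fourth pair, with a log2 fold change of -0.08 (-0.25 to 0.09 with pairs). Ern2, the form of mucin-secreting epithelium, had 2.15, 9.07, 7.0, 4.36 and 8.99 FPKM with WY-14643, against 2.31, 9.10, 7.05, 4.64 and 7.61 FPKM with vehicle, lowest in the first pair and high in the second and the fifth, with a log2 fold change of 0.01 (-0.12 to 0.15). Goblet markers did not move as 1 group with it: of 7 tested, the first pair held the 2 lowest libraries for Muc2 and Agr2 and the fifth pair for 4 others, Tff3, Clca1, Zg16 and Fcgbp. Muc2, the main goblet cell mucin, was at 0.665, 5.99, 5.51, 4.03 and 6.79 FPKM with WY-14643 and 1.07, 10.03, 5.77, 6.57 and 7.95 FPKM with vehicle. The 7, of 9 listed, summed to 18.7 to 76.7 FPKM with WY-14643 and 35.3 to 74.1 FPKM with vehicle, 1 of the 7 had a higher mean with WY-14643 and none was called; Atoh1 and Spdef were below the filter. The most abundant of them, Agr2, itself an ER disulfide isomerase of mucus cells, had 8.10, 20.1, 28.1, 17.4 and 32.8 FPKM with WY-14643, against 16.7, 21.6, 32.7, 22.6 and 27.4 FPKM with vehicle. The part of goblet cell share in Ern2 was not tested.

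Set side by side, the groups of genes differed in their spread between pairs. The mean log2(FPKM + 1) of the ATF4 branch was 4.68, 4.12, 5.02, 5.66 and 3.69 with WY-14643, against 4.32, 4.06, 5.01, 5.75 and 3.48 with vehicle. For the chaperone group it was 5.79, 5.41, 5.57, 5.18 and 5.27 with WY-14643, against 5.70, 5.39, 5.59, 5.20 and 5.32 with vehicle. The ATF4 branch thus spanned over 2 log2 units and the chaperones well under 1. The branch mean stood above the chaperone mean only in the fourth pair, by 0.49 with WY-14643 and 0.56 with vehicle; in the other 8 libraries the difference was -1.84 to -0.54. Within pairs, WY-14643 minus vehicle was 0.37, 0.06, 0.01, -0.09 and 0.21 for the ATF4 branch, and 0.09, 0.02, -0.03, -0.02 and -0.05 for the chaperones. The largest of these, in the first pair, came with 11 of 12 ATF4-branch genes higher in WY-14643 replicate 6 than in vehicle replicate 1, while in the fourth pair 3 of 12 were higher. Averaged over libraries, the ATF4 branch was at 4.64 ± 0.769 with WY-14643 and 4.52 ± 0.879 with vehicle, and the chaperones at 5.44 ± 0.243 with WY-14643 and 5.44 ± 0.203 with vehicle (SD, n = 5 each). The sensors were at 3.53 ± 0.102 with WY-14643 and 3.53 ± 0.152 with vehicle. No test was run on these means, since the genes were chosen with results of these data known.

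**Figure D4:**
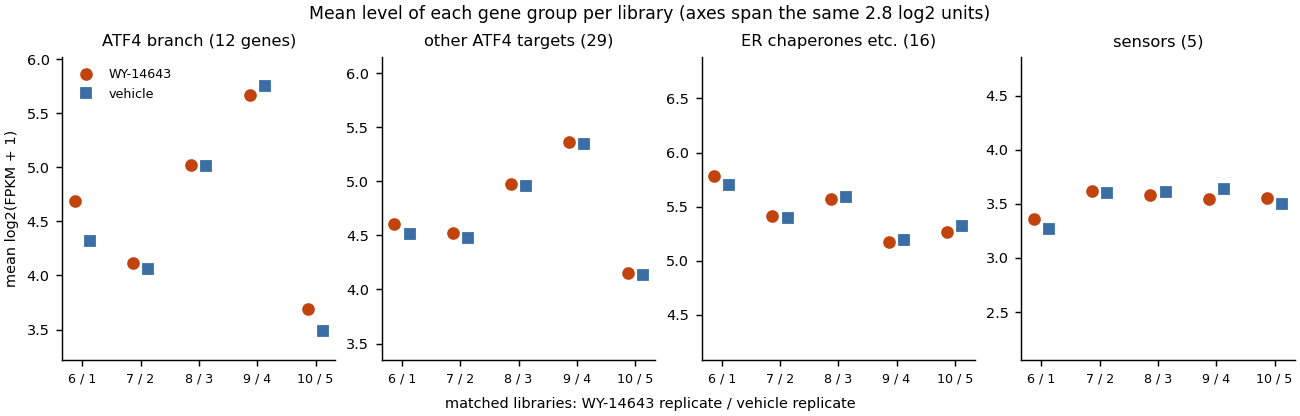
Mean log2(FPKM + 1) of each gene group in each library, with WY-14643 (circles) left of its matched vehicle library (squares), on axes of equal span. The ATF4 branch and the other ATF4 targets share a peak in the fourth pair (5.66 and 5.75 for the branch) and a low in the fifth, and the chaperones peak in the first.

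Other ATF4 targets were mostly highest and lowest in the same pairs. Of 29 such genes, all tested, both libraries of the fourth pair were the 2 highest for 20. Both of the fifth were the 2 lowest for 17, and these orders were not counted over all genes. The median log2 fold change of the 29 was 0.00, with 15 means higher and 14 lower. Of the 29, 2 were higher in 5 of 5 pairs, Vldlr and Slc7a11 (5.63% of all genes were). Another 3 were lower in 5 of 5, Stc2, Eprs and Tars (6.09% of all genes were). Only Vldlr, a receptor for triglyceride-rich lipoproteins, rose past the threshold, and only with pairs: it had 5.87, 12.8, 9.40, 12.2 and 6.11 FPKM with WY-14643, against 4.09, 9.25, 7.64, 9.82 and 4.38 FPKM with vehicle, a log2 fold change of 0.36 ± 0.05 (SE with pairs; limma, adjusted p = 0.0462 with pairs and 0.99999 without). Vldlr was highest in WY-14643 replicate 7 and lowest in vehicle replicate 1, so it did not have the order of the branch. Slc7a11, the cystine importer, was also higher in each of the 5 pairs, at 14.4, 7.32, 17.7, 20.7 and 2.45 FPKM with WY-14643 and 10.7, 4.77, 16.6, 17.1 and 1.55 FPKM with vehicle, and did not pass (limma with pairs, adjusted p = 0.128). Gdf15, a stress hormone, had 9.45, 9.56, 13.1, 21.2 and 4.92 FPKM with WY-14643, against 6.81, 11.2, 11.0, 13.6 and 3.83 FPKM with vehicle (adjusted p = 0.449). Nupr1, a chromatin-binding stress protein, differed from the branch, with the fifth pair its highest at 238 FPKM under WY-14643 and 160.4 FPKM under vehicle. Ddit4, an inhibitor of mTORC1 and the most abundant of the 29, had 99.6, 173, 175, 274 and 93.7 FPKM with WY-14643, against 120.3, 239.9, 209, 223 and 78.1 FPKM with vehicle. The 12 aminoacyl-tRNA synthetase genes of the list had log2 fold changes of -0.08 to 0.09, and 10 of them had their 2 highest libraries in the fourth pair.

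Upstream of ATF4, the 7 genes of other eIF2α kinases, eIF2α itself, its constitutive phosphatase partner and the mitochondrial stress relay were close to level over the libraries. Their log2 fold changes ran from -0.06 to 0.09, none passed in either fit, and the ratio of their highest to their lowest library was 1.26 to 1.62. Dele1, which carries mitochondrial stress to HRI, had 3.64, 4.17, 4.42, 3.71 and 3.90 FPKM with WY-14643, against 3.58, 4.02, 3.74, 3.45 and 3.58 FPKM with vehicle (limma with pairs, adjusted p = 0.603). Eif2ak4, which encodes GCN2, averaged 3.90 ± 0.225 FPKM with WY-14643 and 3.68 ± 0.385 FPKM with vehicle, and Ppp1r15b, the constitutive partner, 42.6 ± 3.07 FPKM with WY-14643 and 41.2 ± 3.84 FPKM with vehicle (SD, n = 5 each). These kinases act through their activity, which mRNA levels do not show.

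No further list of the pathway had a member that passed in either fit. Of 26 other ER folding and ERAD genes 25 were tested and 16 had a higher mean; Derl1, a channel component of ERAD, was higher in each of the 5 pairs, at 27.5, 26.1, 29.05, 28.9 and 26.2 FPKM with WY-14643 and 25.3, 22.4, 24.8, 28.0 and 23.5 FPKM with vehicle (limma with pairs, adjusted p = 0.270). P4hb, the most abundant of that list, averaged 220.5 ± 37.9 FPKM with WY-14643 and 210.4 ± 27.8 FPKM with vehicle (SD, n = 5 each). Of 22 genes of the ER translocon and transport 12 had a higher mean, with log2 fold changes of -0.09 to 0.28. Sec61g, a small subunit of the channel and the top of that range, averaged 8.85 ± 0.780 FPKM with WY-14643 and 7.47 ± 2.87 FPKM with vehicle. Ssr3, the most abundant there, averaged 88.7 ± 13.5 FPKM with WY-14643 and 88.0 ± 15.0 FPKM with vehicle (SD, n = 5 each for both genes). Of 9 other ER stress transcription factors and their proteases 7 were tested and 1 had a higher mean; Atf6b, a relative of Atf6, was lower in 5 of 5 pairs, with a log2 fold change of -0.10 (limma with pairs, adjusted p = 0.536). Of 9 genes of the mitochondrial stress response 2 had a higher mean. Hspd1, the mitochondrial chaperonin and the most abundant of them, had 274, 167, 189, 163 and 173 FPKM with WY-14643, against 315, 149.9, 207, 177 and 189 FPKM with vehicle, and its cofactor Hspe1 a log2 fold change of -0.16 (95% interval -0.32 to -0.01 with pairs).

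**Figure D5:**
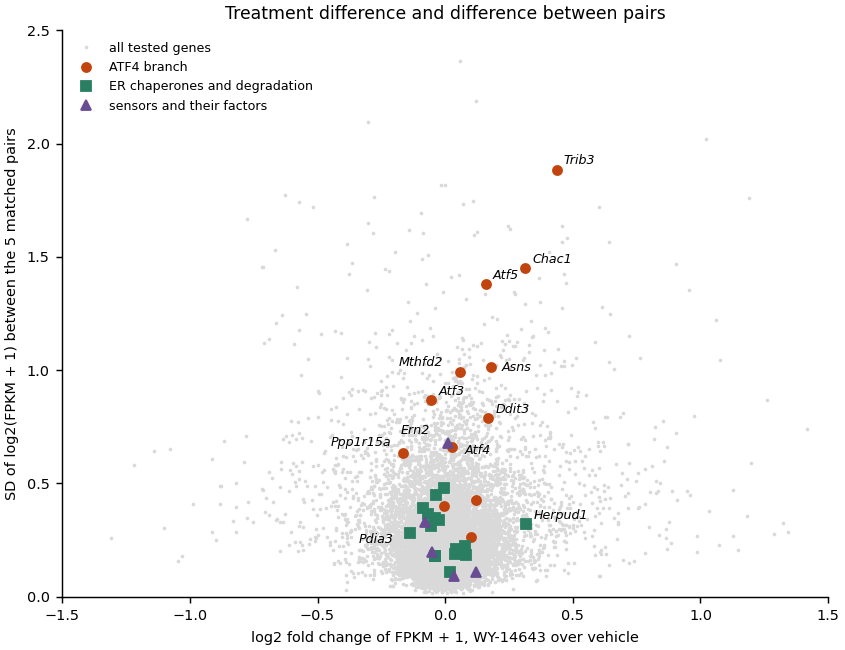
Each gene's log2 fold change of FPKM + 1, WY-14643 over vehicle (horizontal axis), against the SD of its pair means over the 5 matched pairs (vertical axis, log2 units), for 13607 tested genes (grey; 2 lie outside the axes) and the 33 members (coloured). Most of the ATF4 branch lies high, with Trib3 at 1.88, Chac1 at 1.45 and Atf5 at 1.38, and its log2 fold changes run from -0.17 to 0.44. The chaperones lie lower, at 0.48 or less, and Phgdh at 0.26, Psat1 at 0.40 and Shmt2 at 0.43 lie among them.

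The spread between pairs ranks the members among all tested genes. The SD of pair means was 1.88 for Trib3, 1.45 for Chac1, 1.38 for Atf5, 1.01 for Asns and 0.99 for Mthfd2 on the log2 scale, against a median of 0.21 over all genes. The median ATF4-branch gene had an SD at least as large as that of 97.5% of tested genes, the median chaperone 70.0% and the median sensor 45.1%. Within the branch the serine enzymes were the least variable, with 0.26 for Phgdh and 0.40 for Psat1, and so overlapped the chaperones, whose widest was Hspa5 at 0.48. The differences within pairs had a smaller SD for the same genes, at 0.61 for Trib3, 0.41 for Chac1, 0.29 for Atf5, 0.16 for Asns and 0.20 for Mthfd2, though an SD of differences is not on the scale of an SD of means. Trib3, at 0.61, and Ppp1r15a, at 0.50, were the widest of the members on that measure.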

How the data were processed

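Polyadenylated RNA of 10 organoid libraries, grouped by the treatment in the labels, was analysed. The authors deposited FPKM. HISAT2 2.0.5 and featureCounts 1.5.0-p3 on build mm39 are named, per the submitters' processing notes. How libraries were scaled, the strand setting and the release of the annotation are not stated in any source used, so reads of overlapping genes (6 members overlap another tested gene) cannot be told apart. FPKM times gene length came in whole multiples of 1 read (100% of values, tolerance 0.01), which gave the reads per library; they were used for depth and for a voom fit.

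The comparison used limma 3.58.1 (R 4.3.3) on log2(FPKM + 1), with a mean-variance trend, robust priors and no covariate, for genes with a mean of at least 0.5 FPKM over 10 libraries, and Benjamini-Hochberg adjustment over all of them (threshold 0.05). Fold changes on this scale understate those of low genes. The fit was checked on simulated data. The labels share no replicate numbers between groups. Deviations from group means across genes correlated at 0.423 to 0.782 for libraries matched in numerical order and at most 0.0602 for unmatched ones, so pair was added as a block in a second fit.

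The members and lists were chosen with earlier results of these data known. Named in full are the 4 members with the smallest unadjusted p and the 2 most abundant of each group, and of other lists up to 3 with the smallest p and the most abundant; other genes were named after their values were seen. Promoters are those of RefSeq (GRCm38.p6), matched by symbol, with no coordinates carried between builds. Plots were made in Python 3.11.15 with matplotlib 3.10.9. Alternatives were other pseudocounts, filters, scaling, voom, library weights and leaving out libraries or pairs.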

Additional observations from a re-analysis of the deposited data

Results flagged for a closer look

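In 9 of 66 groups of 5 libraries, a member's highest or lowest library stood apart from the other 4. Its gap to the next one, divided by the range, was above the critical value of 0.71 (Dixon's test). Chance gives about 1 in 20 for independent groups. The 66 groups share the same 10 libraries, and the share over all tested genes was not counted. The 9 are therefore not read as an excess. In the WY-14643 group, replicate 9 was low for Sdf2l1 (14.7 FPKM) and Eif2ak3 (6.22 FPKM). In the vehicle group its matched library, replicate 4, was likewise low for Sdf2l1 (13.2 FPKM), and was high for Atf5 (82.9 FPKM) and Sel1l (21.6 FPKM). Vehicle replicate 1 was high for Canx (149 FPKM) and low for Xbp1 (31.8 FPKM), vehicle replicate 2 was low for Phgdh (58.8 FPKM) and vehicle replicate 5 was low for Atf3 (0.866 FPKM).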

How the results depend on the processing

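No member passed under any of 22 alternatives, and the smallest adjusted p of a member over them was 0.159 (limma, Herpud1 with the replicate block). Over all genes, 0 passed without pairs, 43 with pairs as a block and 21 with library quality weights. With a library or a pair left out, 0 to 33 genes passed: without the block, 1 when vehicle replicate 2 or WY-14643 replicate 10 was left out and 2 when vehicle replicate 5 was, and 33, 3, 2, 13 and 33 with the block when the first to the fifth pair was left out in turn. The other settings (pseudocount 0.1, no filter, a mean of at least 1 FPKM, voom on reads, a common sum per library, and each of the other 7 libraries left out) gave 0. The cause of these differences was not tested.

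The median log2 fold change of the ATF4 branch ranged from -0.18 to 0.33 over the alternatives, that of the chaperones from -0.11 to 0.05 and that of the sensors from -0.05 to 0.07. Herpud1, Dnajb9, Edem1, Pdia3 and Xbp1 kept their sign in all 22, and 28 members changed sign in at least 1, in 104 of 726 values. The block changed no member's call; of the genes named in the pathway lists, Vldlr passed with it alone. Protein sequences were not analysed here. With 5 libraries a group and pairs that the labels do not give, the paired intervals of Trib3, Chac1 and Ppp1r15a leave room for differences above 1.5-fold. Without pairs those of more members do. Examples on the log2 scale are Atf4 (-0.79 to 0.85), Hspa5 (-0.62 to 0.61) and Herpud1 (-0.11 to 0.74).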
